A study of Rattus norvegicus with 8 samples.

Results

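The feedback inhibitors of the ERK MAP kinase pathway were examined in whole testes of rat fetuses exposed to dibutyl phthalate (DBP), a plasticizer, or to vehicle. The genes were Dusp1, Dusp4, Dusp5, Dusp6, Spry1, Spry2, Spry4 and Spred1, 8 in all, and they were chosen by symbol, as probe sets that the platform annotation assigns to that gene alone. This gave 10 probe sets for 7 genes, of 31042 probe sets tested, and no probe set carried the symbol Spred1, which was therefore not analysed here. Testes came from male Fischer 344 fetuses at gestational day 20. In 4 samples the dam had received 50 mg/kg of DBP in corn oil by daily gavage from gestational day 12 to 20, and in 4 the corn oil vehicle alone, and the testes were harvested 6 h after the final dose. Each sample was hybridised to 1 Affymetrix rat expression array. Nothing in the labels ties the samples of a group to different dams, and the p-values therefore reflect the spread among these 8 arrays, which may be technical, and so few arrays limit the precision.

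Growth factors that bind receptor tyrosine kinases activate Ras, which starts a relay of kinases (Raf, MEK, ERK). Active ERK enters the nucleus and induces, among its targets, genes whose products switch the pathway off again. The dual-specificity phosphatases (Dusp) remove the activating phosphates from MAP kinases, and the Sprouty and Spred proteins act upstream, between the receptor and Raf. Because ERK induces them, mRNAs of Dusp6 and the Sprouty genes are commonly read as a gauge of how active the pathway is, while Dusp1 also responds to cyclic AMP and to stress. In the fetal testis growth factors such as Fgf9 (in the mouse) and Pdgfa use this pathway, and cyclic AMP is the second messenger of luteinizing hormone in Leydig cells.

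The upstream sequences of Dusp1, Dusp5 and Spry4 are shown because they illustrate that these genes, whose levels are given next, carry different motifs of the signals above. The 250 bases before the annotated start are RefSeq sequences of the rat build GRCr8, written from 5′ to 3′ on the strand of the gene, with motif matches in capitals. Dusp1 is from chr10:17184603-17184852 on the plus strand, Dusp5 from chr1:262543524-262543773 on the plus strand and Spry4 from chr18:30702547-30702796 on the minus strand.
Dusp1: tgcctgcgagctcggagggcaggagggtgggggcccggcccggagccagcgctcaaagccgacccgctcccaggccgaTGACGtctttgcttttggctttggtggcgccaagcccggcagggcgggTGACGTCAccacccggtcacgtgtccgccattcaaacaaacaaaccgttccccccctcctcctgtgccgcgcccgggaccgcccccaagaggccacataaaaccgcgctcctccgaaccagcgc
Dusp5: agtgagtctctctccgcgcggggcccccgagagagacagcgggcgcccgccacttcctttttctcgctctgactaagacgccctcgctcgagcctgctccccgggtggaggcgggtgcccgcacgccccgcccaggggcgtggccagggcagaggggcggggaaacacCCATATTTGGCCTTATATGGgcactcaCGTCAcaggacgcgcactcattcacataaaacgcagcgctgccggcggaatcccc
Spry4: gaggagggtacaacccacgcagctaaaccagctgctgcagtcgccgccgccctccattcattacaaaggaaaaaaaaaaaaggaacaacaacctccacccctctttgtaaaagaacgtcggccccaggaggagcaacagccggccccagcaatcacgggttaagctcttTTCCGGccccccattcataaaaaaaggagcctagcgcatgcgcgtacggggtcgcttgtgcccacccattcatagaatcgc

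Capitals in the Dusp1 window mark the cyclic AMP response element TGACGTCA, 124 bases before the start, and a further copy of its core TGACG, 172 bases before the start. In the Dusp5 window they mark a pair of adjoining CArG boxes (the motif of serum response factor), 82 and 72 bases before the start, and a TGACG core on the opposite strand. In the Spry4 window they mark CCGGAA, an ETS factor motif, on the opposite strand. Both strands were searched, the core lies within the full element, and TGANTCA, the AP-1 motif of Fos and Jun, was searched too. Of 33469 windows of the same length, 1.59% held the full cyclic AMP element, 18.2% the core, 1.5% a CArG box, 12.6% the ETS motif and 6.34% the AP-1 motif. Windows were matched by symbol for 7 of the 8 genes, Dusp4 being the exception. Among them the core was also present at Spry2 together with the ETS motif, and no window held the AP-1 letters. The windows of Dusp6, Spry1 and Spred1 held none of the motifs searched, nor did a further window of Spry2. The sequences shown were picked among those that hold matches. The windows of the 7 genes were 54.8% to 74.8% G and C, against a median of 51.2% over all windows. A match to a motif is a description of the letters and not a measured binding site.

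No probe set of the phosphatase and Sprouty genes passed limma's moderated test with Benjamini-Hochberg adjustment over all probe sets (threshold 0.05). That is 0 of 10, where 1.07% of all probe sets passed, and the adjusted p-values lay between 0.21 and 0.976. At an unadjusted p under 0.05, 1 of the 10 was found, where 18.2% of all probe sets were. Every change was small: on the log2 scale the 10 differences of DBP minus vehicle ran between 0.005 and 0.165, with a median of 0.07 against 0.015 over all probe sets. All 10 lay above 0, as did 54.3% of all probe sets, and probe sets of the same gene are not independent. In 2 of 10 the groups did not overlap, both with DBP higher, where 5.62% of all probe sets did so in that direction. A count of 10 probe sets is too short to read these shares as a property of the list.

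**Figure D1:**
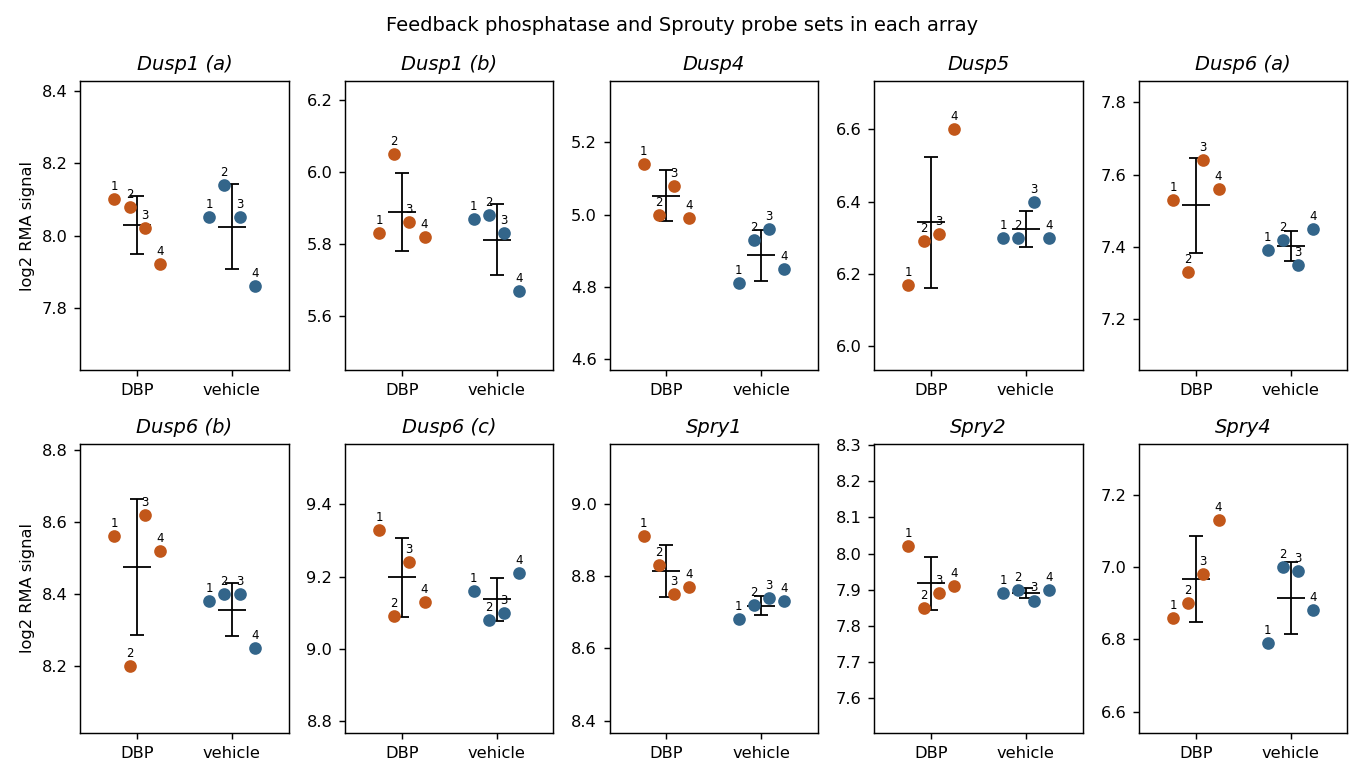
Log2 RMA signal of the 10 probe sets in each array, with DBP arrays left of vehicle arrays, points numbered by replicate, and bars for the mean ± SD (n = 4 per group). Every panel spans the same log2 range, and the groups are separate only for Dusp4 and Spry1.

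Dusp1, Dusp4 and Dusp5 encode the nuclear phosphatases. Dusp1, an immediate early gene whose product acts on p38 and JNK as well as ERK, was measured by 2 probe sets. The brighter one (1368146_at) read 8.10, 8.08, 8.02 and 7.92 in DBP arrays 1 to 4, against 8.05, 8.14, 8.05 and 7.86 in vehicle arrays 1 to 4. The groups overlapped almost completely, and replicate 4 was the lowest array of each. The means were 8.03 ± 0.081 in DBP and 8.03 ± 0.118 in vehicle (SD, n = 4 each), a log2 change of 0.005 ± 0.073 (SE) with a 95% confidence interval of -0.16 to 0.17. The dimmer Dusp1 probe set (1368147_at) read 5.83, 6.05, 5.86 and 5.82 in DBP arrays and 5.87, 5.88, 5.83 and 5.67 in vehicle arrays. Its change was 0.08 ± 0.074 (SE; limma adjusted p = 0.585), with DBP replicate 2 the highest array and vehicle replicate 4 the lowest. The order of the other arrays was not shared by the Dusp1 probe sets, DBP replicate 1 being second highest of the 8 on the brighter and among the middle values on the dimmer.

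Dusp4, which acts on ERK and JNK, had the largest difference of these genes and the dimmest signal. It read 5.14, 5.0, 5.08 and 4.99 in DBP arrays, against 4.81, 4.93, 4.96 and 4.85 in vehicle arrays. Every DBP array lay above every vehicle array, with a gap of 0.03 between the nearest pair. The means were 5.05 ± 0.071 in DBP and 4.89 ± 0.069 in vehicle (SD, n = 4 each), a 1.12-fold difference (log2 change 0.17 ± 0.062, SE; 95% confidence interval 0.03 to 0.30). The unadjusted p was 0.0223 and the adjusted p 0.21 in limma, so the difference did not pass. Only 35.3% of probe sets on the array had a lower mean signal, and log2 differences of dim probe sets are compressed by background.

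Dusp5, a phosphatase specific to ERK, read 6.17, 6.29, 6.31 and 6.60 in DBP arrays and 6.30, 6.30, 6.40 and 6.30 in vehicle arrays. The DBP arrays held both the highest and the lowest value. The log2 change was 0.02 ± 0.087 (SE; 95% confidence interval -0.17 to 0.21; limma adjusted p = 0.931). DBP replicate 4 alone set the sign of this value, which was -0.07 without that array.

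Dusp6, the cytoplasmic phosphatase specific to ERK and the usual mRNA gauge of ERK activity, was measured by 3 probe sets. The brightest (1387024_at) read 9.33, 9.09, 9.24 and 9.13 in DBP arrays, against 9.16, 9.08, 9.10 and 9.21 in vehicle arrays. A second (1382778_at) read 8.56, 8.20, 8.62 and 8.52 in DBP arrays, against 8.38, 8.40, 8.40 and 8.25 in vehicle arrays. The third (1377064_at) read 7.53, 7.33, 7.64 and 7.56 in DBP arrays, against 7.39, 7.42, 7.35 and 7.45 in vehicle arrays. DBP replicate 2 was the lowest DBP array on all 3, and on the last 2 it lay below every vehicle array while the other 3 DBP arrays lay above every vehicle array. The log2 changes were 0.06 ± 0.068, 0.12 ± 0.091 and 0.11 ± 0.072 (SE) in the same order, with limma adjusted p-values of 0.651, 0.5 and 0.418. Their 95% confidence intervals reached up to 0.21, 0.32 and 0.27.

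Without DBP replicate 2, picked because it read low, the Dusp6 changes were 0.10, 0.21 and 0.17. Still none passed (limma adjusted p = 0.4, 0.107 and 0.13). Leaving out DBP replicate 3 instead made the changes smaller, at 0.05, 0.07 and 0.07. With the RNA integrity number as covariate they were 0.04, 0.04 and 0.07. The mean over the 3 probe sets was 8.40 ± 0.133 in DBP and 8.30 ± 0.011 in vehicle (SD, n = 4 each), a change of 0.10 ± 0.066 (SE; limma adjusted p = 0.418 over 14217 genes). On the single probe sets the SD was 0.109 to 0.188 in DBP and 0.043 to 0.072 in vehicle. Vehicle replicate 4 was lowest on 1382778_at and highest on the other 2, and these deviations offset each other in the mean over the 3.

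**Figure D2:**
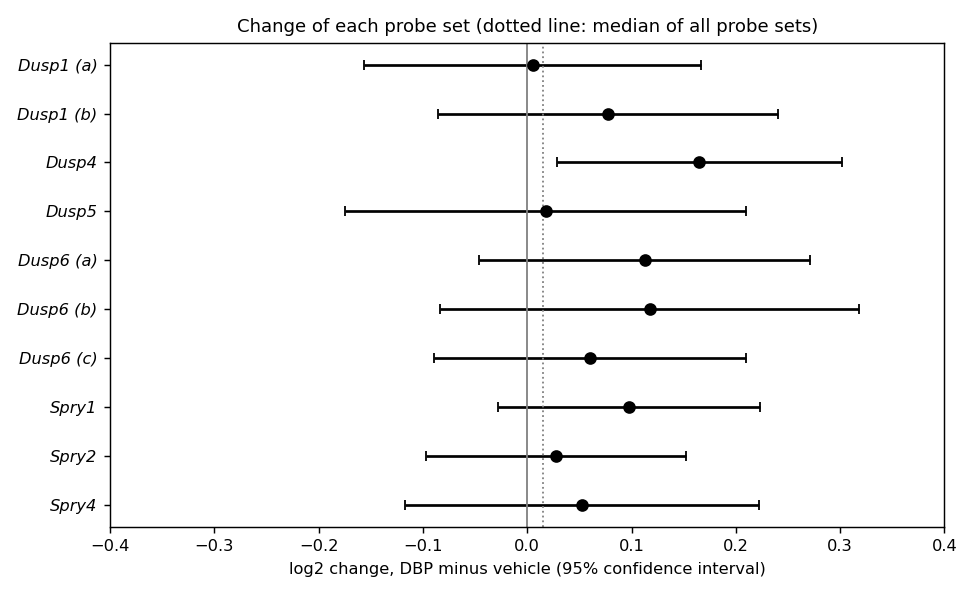
Log2 change of each probe set, DBP minus vehicle, with its 95% confidence interval from limma (n = 4 per group). All 10 points lie between 0.005 and 0.165, and only the interval of Dusp4 leaves out 0.

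The Sprouty genes encode inhibitors of receptor tyrosine kinase signalling and had 1 probe set each. Spry1 read 8.91, 8.83, 8.75 and 8.77 in DBP arrays, against 8.68, 8.72, 8.74 and 8.73 in vehicle arrays. The groups did not overlap, though the lowest DBP array and the highest vehicle array were 0.01 apart. The means were 8.82 ± 0.072 in DBP and 8.72 ± 0.026 in vehicle (SD, n = 4 each), a 1.07-fold difference (log2 change 0.10 ± 0.057, SE) with an adjusted p of 0.38 in limma. The part of DBP replicates 1 and 2 was the greater: against all vehicle arrays, these gave 0.15 and DBP replicates 3 and 4 gave 0.04.

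Spry2 read 8.02, 7.85, 7.89 and 7.91 in DBP arrays and 7.89, 7.90, 7.87 and 7.90 in vehicle arrays. It had the narrowest vehicle spread of the 10 probe sets (SD 0.014) and 1 high DBP array, replicate 1. Its change of 0.03 ± 0.056 (SE; limma adjusted p = 0.818) had a 95% confidence interval of -0.10 to 0.15, the tightest upper bound of the set. Spry4 read 6.86, 6.90, 6.98 and 7.13 in DBP arrays and 6.79, 7.0, 6.99 and 6.88 in vehicle arrays. Its change was 0.05 ± 0.076 (SE; limma adjusted p = 0.733), and the groups overlapped, with DBP replicate 4 the highest of the 8 arrays and vehicle replicate 1 the lowest. Without DBP replicate 4 the Spry4 change was -0.002.

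The intervals limit how large a change in array signal could have gone unseen in these samples. Each holds for its own probe set and not for the 10 jointly, and differences of dim probe sets are compressed by background. Over the 10 probe sets the 95% confidence intervals ran between -0.17 and 0.32 on the log2 scale, that is between 0.886-fold and 1.25-fold. The bounds apply to whole testis RNA, in which fewer cells of a type and less RNA per cell cannot be told apart, and in which a change in a minor cell type would be diluted.

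The spread between arrays was wider after DBP. The SD of the DBP arrays exceeded that of the vehicle arrays for 9 of 10 probe sets, the exception being the brighter of Dusp1, while this held for 76.4% of all probe sets on the array. The median SD over the 10 was 0.108 in DBP and 0.064 in vehicle, against 0.125 in DBP and 0.075 in vehicle over all probe sets. The arrays that stood high were not the same for each gene: DBP replicate 1 was the highest DBP array for Dusp4, Spry1, Spry2 and the brightest probe sets of Dusp1 and Dusp6, replicate 2 for the dimmer of Dusp1, replicate 3 for the other 2 Dusp6 probe sets and replicate 4 for Dusp5 and Spry4. As the median over the 10 probe sets, DBP arrays 1 to 4 lay 0.13, -0.03, 0.06 and 0.08 from the vehicle mean on the log2 scale, so DBP replicate 2 did not lie above it. The vehicle arrays lay between -0.03 and 0.03.

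**Figure D3:**
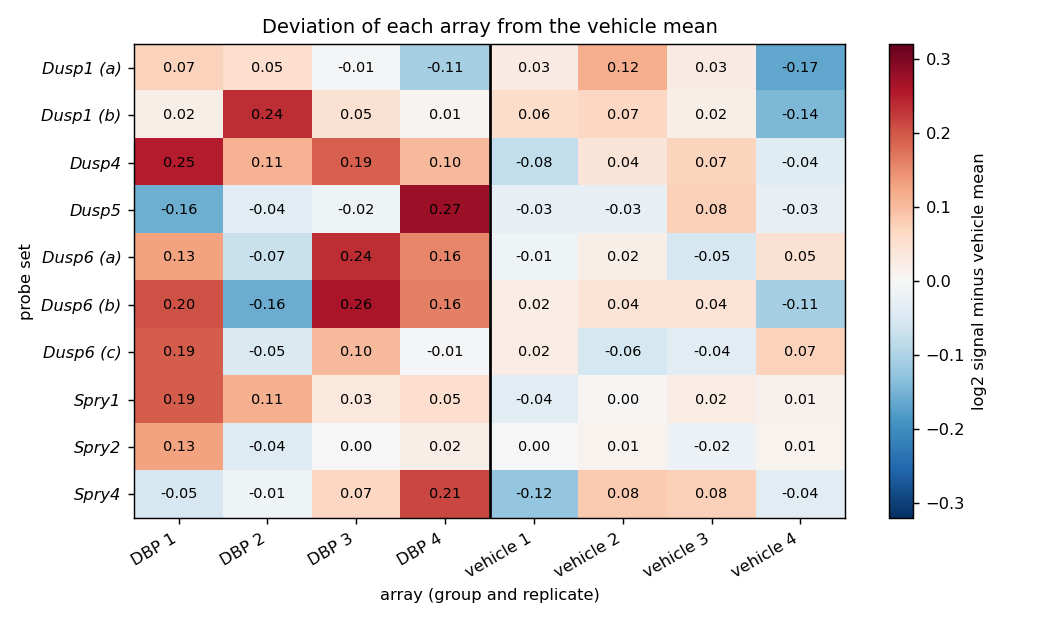
Log2 signal of each array minus the vehicle mean, for 10 probe sets (rows) in 8 arrays (columns, DBP left of the line). The 3 Dusp6 rows share a low DBP replicate 2, while Dusp5 and Spry4 share a high DBP replicate 4.

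The mean log2 signal of the 24 poly-A spike-in probe sets was 6.46 to 6.79 in vehicle. It was 7.17 and 6.68 in DBP replicates 1 and 2. DBP replicates 3 and 4 stood apart on these controls, at 4.84 and 4.79. Leaving those arrays out, with 2 DBP arrays against 4 vehicle arrays, gave a median change of 0.06 over the 10 probe sets and again 0 of 10 past the threshold in limma, with Dusp5 at -0.10 and Spry4 at -0.04. Leaving out DBP replicates 1 and 2 instead gave 0.09 and 0 of 10, with the 2 dimmer Dusp6 probe sets at 0.20 and 0.21 (limma adjusted p = 0.072 and 0.0807). The part of the spike-in difference in these values was not tested. On the hybridization controls DBP replicate 2 was the lowest array, at a mean log2 of 9.48 against 9.75 to 10.075 in the others. Its part was not tested either. Array medians were 6.08 to 6.10 in DBP and 6.11 to 6.13 in vehicle, so they did not overlap. With arrays shifted to the same median, the median change over the 10 probe sets was 0.09, against 0.07 as deposited. Correlations between arrays were 0.991 to 0.998, and RNA integrity numbers 8.6 to 8.8. Defining testis markers were bright, with Amh of Sertoli cells at 12.45 to 12.78 in DBP and 12.63 to 12.73 in vehicle, and Cyp17a1 of Leydig cells at 12.46 to 12.79 in DBP and 12.58 to 12.68 in vehicle.

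Markers of 9 cell types and neighbouring tissues were each taken by the brightest probe set. Of 66 measured, 2 passed, where 1.22% of all genes did. These were Plvap of endothelium (0.36) and Mrap, an adrenal marker (-0.61). Their lists went in both directions, with 4 of 7 endothelial and 3 of 6 adrenal markers above 0. Leaving out any of the 4 vehicle arrays ended both calls with changes of similar size. Without vehicle replicate 3, Plvap gave 0.38 (limma adjusted p = 0.125) and Mrap gave -0.59 (limma adjusted p = 0.116). Like the 10 probe sets, the markers of 3 cell types all lay above 0 after DBP without passing. These were 8 of 8 peritubular myoid, 10 of 10 macrophage and 7 of 7 erythroid markers. The log2 of the summed unlogged signal of the peritubular myoid markers was 13.42 to 13.60 in DBP and 13.22 to 13.44 in vehicle. For macrophage markers it was 10.47 to 10.63 in DBP and 10.38 to 10.47 in vehicle. For erythroid markers it was 13.97 to 14.29 in DBP and 14.0 to 14.16 in vehicle. The brightest markers weigh most in such a sum, as Hbb did among the erythroid ones (mean log2 13.92 over the 8 arrays). The 3 cell types were picked from the 9 after their values were seen, and 54.3% of all probe sets lay above 0. The erythroid difference was not shared by all DBP arrays. Alas2 read 11.18 and 11.14 in DBP replicates 1 and 2, 10.32 and 10.30 in DBP replicates 3 and 4, and 10.26 to 10.76 in vehicle. The part of the 3 cell types in the small differences of the phosphatase and Sprouty genes was not tested.

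The other genes of the pathway were taken from 6 lists, each gene by its brightest probe set. The lists were chosen with earlier results of these data known, so the shares below are descriptions and not tests of the lists. Of 82 measured entries 5 passed in limma over all probe sets, 2 higher and 3 lower, where 1.22% of all genes passed. Among 13 genes of the cascade itself (adaptors, Ras, Raf, MEK and their scaffolds) 0 passed, and 0 had an unadjusted p under 0.05. Changes of the cascade genes ran between -0.13 and 0.15 with a median of -0.03, Map2k2 (MEK2) giving 0.15, Nras -0.11 and Sos2, a Ras exchange factor, -0.13.

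Of 24 growth factors and receptors that feed the cascade, 2 fell and 0 rose. Tgfa, a ligand of the EGF receptor, read 7.94, 8.15, 8.22 and 7.66 in DBP arrays, against 8.70, 8.67, 8.70 and 8.69 in vehicle arrays (log2 change -0.70 ± 0.107, SE; limma adjusted p = 0.0149). Pdgfa, a PDGF ligand, read 7.94, 8.05, 8.25 and 8.05 in DBP arrays, against 8.44, 8.39, 8.51 and 8.47 in vehicle arrays (-0.38 ± 0.072, SE; limma adjusted p = 0.037). A second Tgfa probe set gave -0.715 (limma adjusted p = 0.0132). The groups did not overlap for either ligand. The median over the 24 was -0.08, and 14 of them were lower. An unadjusted p under 0.05 was found for 11 of the 24, 8 lower and 3 higher, where 19.1% of all genes had one.

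Of 20 genes that ERK is known to induce, 2 rose and 1 fell. Etv4, an ETS factor that is commonly induced together with Dusp6 and the Sprouty genes, read 6.76, 6.80, 6.79 and 7.04 in DBP arrays, against 6.41, 6.13, 6.20 and 6.51 in vehicle arrays. It was 1.45-fold higher (log2 change 0.54 ± 0.097, SE; limma adjusted p = 0.0305), and its second probe set gave 0.49 (limma adjusted p = 0.00634). Nr4a1, an orphan nuclear receptor, rose by 1.16 (limma adjusted p = 0.0132) and Egr2, a zinc finger factor, fell by 0.37 (limma adjusted p = 0.0298), its dimmer probe set giving 0.15. The other 17 did not pass, and over the 20 genes 13 lay above 0 and 7 below. Of those 17, Egr1, Fos and Myc gave -0.06, 0.02 and -0.02 (limma adjusted p = 0.835, 0.95 and 0.895). Junb gave 0.42, Etv1 0.29, Etv5 0.21 and Ier2 -0.25 (limma adjusted p = 0.181, 0.188, 0.306 and 0.155). These genes were picked with their values in view. An unadjusted p under 0.05 was found for 7 of the 20, 5 higher and 2 lower, beside the same 19.1%. Whether Etv4 differed from Dusp6 in its change was not tested, since Etv4 is named for having passed.

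Leaving out single arrays ended calls of the ligands and targets. Each gene was followed by its brightest probe set only, so the second probe sets of Tgfa and Etv4 are not covered. Leaving out vehicle replicates 1, 2, 3 and 4 in turn left 1, 1, 0 and 2 of the pathway genes past the threshold in limma, and leaving out DBP replicate 1 or 3 left 3 each. Over all probe sets, 82 to 122 passed when a vehicle array was left out, against 331 with all 8 arrays. Without vehicle replicate 3, Tgfa gave -0.69 (limma adjusted p = 0.0667), Pdgfa -0.36 (0.14), Etv4 0.50 (0.124), Egr2 -0.37 (0.117) and Nr4a1 1.13 (0.0604). These changes were close to those from all 8 arrays. Tgfa, Pdgfa and Egr2 no longer passed when any vehicle array was left out, nor did Etv4 without vehicle replicate 1 or 2. Calls also ended without DBP replicate 1 for Etv4 and Pdgfa, without DBP replicate 3 for Etv4 and Egr2, and without DBP replicate 2 or 4 for Pdgfa. With only DBP replicates 1 and 2, Etv4 gave 0.47 (limma adjusted p = 0.0703). Other settings that ended a call moved the change little. With arrays shifted to the same median or quantile normalized, Pdgfa gave -0.36 and -0.34 (limma adjusted p = 0.0547 and 0.0664). With the RNA integrity number as covariate Etv4 gave 0.54 (limma adjusted p = 0.0555). With the replicate number as a block, which leaves the change as it is, the limma adjusted p was 0.0602 for Egr2 and 0.0605 for Pdgfa. With unmoderated t statistics none of the 5 passed (adjusted p between 0.104 and 0.141).

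**Figure D4:**
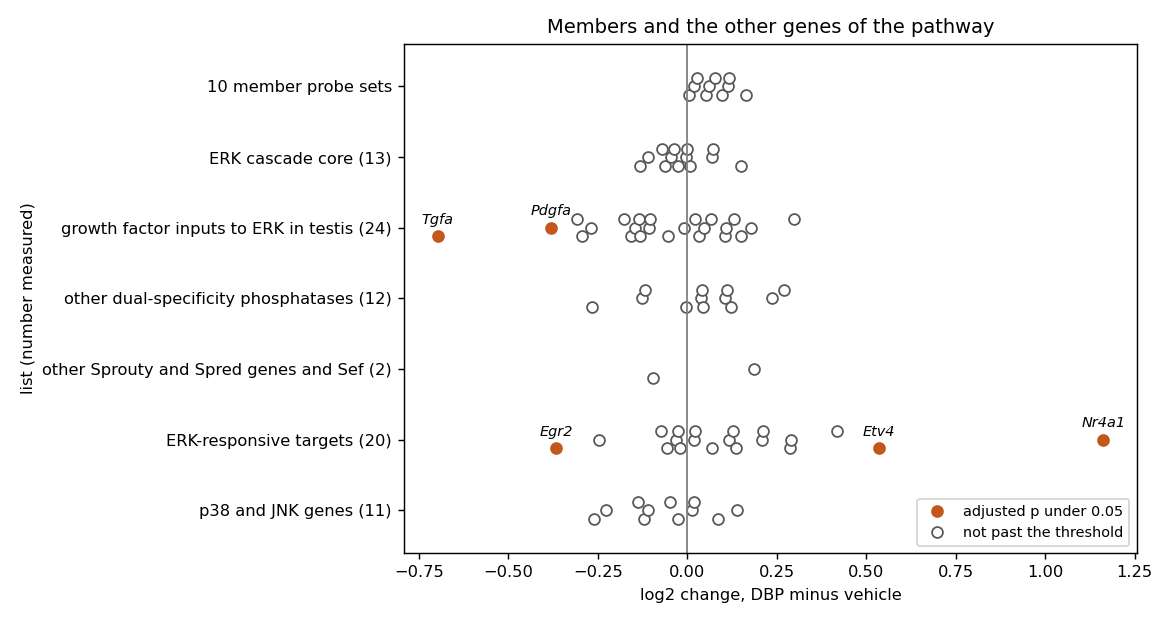
Log2 change, DBP minus vehicle, of the 10 member probe sets and of the genes of 6 pathway lists, with filled points for a limma adjusted p under 0.05. The members lie in a narrow band next to 0, between the falls of Tgfa and Pdgfa and the rises of Etv4 and Nr4a1.

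The relatives of these genes in the phosphatase and Sprouty families did not pass either. Of 12 other dual-specificity phosphatases 0 passed, and 3 had an unadjusted p under 0.05, against 19.1% of all genes. Dusp22 and Dusp14, small phosphatases without the MAP kinase docking domain, gave 0.24 and 0.27, and Dusp18 gave -0.27 (limma adjusted p = 0.103, 0.155 and 0.137). Of the other 3 probe sets of Dusp18, 2 lay higher (0.18 and 0.28) and 1 lower (-0.04), so its direction was not settled. Spred3 (0.19) and Spry3 (-0.10) did not pass. Of 11 genes of the p38 and JNK pathways 0 passed and 2 had an unadjusted p under 0.05, Mapk9 (-0.26) and Jun (-0.23), while Mapk12 gave 0.14. Those 2 of 11 are a share near the 19.1% over all genes.

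Among 9549 other genes brighter than the median probe set, the profiles most like that of Dusp4 over the 8 arrays were those of Gpr4, Bdh2 and Chmp4c (Pearson r = 0.982, 0.967 and 0.966). These are the highest of many values over 8 arrays that share the group difference, and they describe likeness only. The changes of Gpr4, Bdh2 and Chmp4c were 0.35, 0.33 and 0.20, with limma adjusted p-values of 0.0715, 0.111 and 0.163.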

How the data were processed

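Total RNA of 8 fetal testis samples, 4 DBP and 4 vehicle, was labelled and hybridised to Affymetrix rat arrays. The deposited log2 signals, 1 for each probe set on each array, come from RMA as the authors ran it, per the submitters' processing notes (version not given in the sources used here). Scanner files were not used here. As usually run, RMA models background and quantile normalizes arrays, which compresses differences of dim probe sets. Of 31099 probe sets 57 controls were set aside. Names came from the platform gene table, in which 20826 probe sets had 1 symbol, 436 several and 9780 none. Groups were compared with limma 3.58.1 in R 4.3.3 (2-sided, Benjamini-Hochberg over 31042 probe sets, threshold 0.05), with the groups taken from sample titles and no covariate. Intervals are 95% intervals of that model. Tables and figures were made with Python 3.11.15, pandas 2.3.3 and matplotlib 3.10.9. The members, lists and alternatives were chosen with earlier results of these data known. By rule, named genes were the members, and list genes past the threshold or otherwise the 3 with the smallest unadjusted p of a list. Cell type markers past the threshold were named too, with the 3 profiles most like the member with the smallest p. Outside this rule, Egr1, Fos, Myc, Junb, Etv1, Etv5, Ier2, the FGF receptors and Fgf9 were named with their values in view. The markers Amh, Cyp17a1 and Alas2 were also named without having passed. The fit was tested on simulated data. No pair of arrays was identical.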

Additional observations from a re-analysis of the deposited data

Results flagged for a closer look

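Of 20 groups of 4 arrays (10 probe sets in each of DBP and vehicle), 2 held an array whose distance to its nearest neighbour took up most of the range of the group, and chance gives about 1 in 20. For Dusp5 the highest vehicle array, replicate 3, read 6.40, while the other 3 vehicle arrays were equal at 6.30, so this gap is 0.10 on the log2 scale. For the Dusp6 probe set 1382778_at the lowest vehicle array, replicate 4, read 8.25 against 8.38 to 8.40 in the other vehicle arrays. The brightest Dusp6 probe set was highest, not lowest, among vehicle arrays in that replicate.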

How the results depend on the processing

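Under 19 alternatives (16 for the median, 18 for the pathway genes and all probe sets) 0 phosphatase and Sprouty probe sets passed in limma or with unmoderated t statistics, and the lowest adjusted p of any was 0.072. Of 177 member values under alternatives 168 kept their direction. The sign of uncalled values turned for the brighter Dusp1 probe set without DBP replicates 1 and 2 (-0.055; -0.050 to 0.043 when 1 array was left out), for Dusp5 without DBP replicates 3 and 4 (-0.095; -0.068 to 0.075 when 1 array was left out) and for Spry4 without the same arrays (-0.035; -0.0017 to 0.088). When 1 array was left out, Spry2 ran between -0.0067 and 0.050 and Spry3 between -0.18 and 0.005. The median over the members was 0.06 to 0.09 when 1 array was left out. A filter on means above 5 removed Dusp4, and a filter at the median also removed the dimmer Dusp1 probe set. The count of all probe sets past the threshold was 331, with 175 under the replicate block, 577 without DBP replicates 3 and 4, 4129 without DBP replicates 1 and 2 (chosen after seeing the data), 74 with unmoderated t statistics, and 82 to 606 when 1 array was left out. The 5 pathway genes became 3 with the replicate block, 13 without DBP replicates 1 and 2, 0 with unmoderated t statistics and 0 to 5 when 1 array was left out. The cause was not tested. The replicate numbers are not shown to pair samples: correlations of same-numbered deviations were 0.108, -0.076, 0.097 and -0.021.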

Other observations

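The FGF receptors signal through ERK to Dusp6 and the Sprouty genes in many embryonic tissues. Their brightest probe sets lay lower after DBP without passing, and these genes were chosen after their values were seen. Fgfr1, Fgfr3 and Fgf9 had 2 probe sets each and Fgfr2 had 5, and the dimmer ones were not examined. Fgfr1 read 8.94, 8.91, 8.73 and 8.86 in DBP arrays, against 9.09, 9.20, 9.12 and 9.11 in vehicle arrays (log2 change -0.27, limma adjusted p = 0.0759). Fgfr2 gave -0.31, Fgfr3 -0.30 and Fgfr4 -0.15 (limma adjusted p = 0.141, 0.144 and 0.231). Fgf9, a ligand of these receptors, read 6.29, 5.94, 5.76 and 6.16 in DBP arrays, against 5.70, 5.56, 5.79 and 5.91 in vehicle arrays, with a change of 0.30 (limma adjusted p = 0.225) and overlapping groups. None of these values passed the test over all probe sets.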
